A study of Mus musculus with 16 samples.

Results

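The genes described here are 39 genes of B cells, T cells, natural killer (NK) cells and antigen presentation, read in 16 RNA-seq libraries of mouse liver. They were taken by name from the deposited gene count table after its Ensembl identifiers had been matched to gene symbols, and all 39 were found among 55357 genes. By role they are 5 antigen presentation genes, 11 B cell genes, 11 T cell genes, 9 NK and cytotoxic genes and 3 genes shared by leukocytes. The AUG group holds 4 liver samples with the genotype label mTERC CUG/AUG, and the del7 group holds 4 liver samples with the label mTERC 29_35del, a deletion of 7 nucleotides in the mouse telomerase RNA gene. Each mutant has its own group of 4 wild-type liver samples (genotype label WT), named AUG_WT and del7_WT here. No animal was treated, and the labels give no age, sex, strain or sequencing batch. They do not say that replicates are separate animals, so the p-values below measure only the spread between these samples. Terc itself is not analysed here, so the genotype of a library was not checked against its reads.

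In a healthy liver most RNA comes from hepatocytes, and resident macrophages (Kupffer cells), sinusoidal endothelium and a minority of lymphocytes add their own transcripts. B cells read antigen through a surface immunoglobulin coupled to CD79A and CD79B, T cells through a receptor coupled to the CD3 chains, and NK cells through germline-encoded receptors whose signals release granzymes and perforin. MHC class II molecules, which B cells, dendritic cells and macrophages carry, present peptides to CD4 T cells, and CIITA is the coactivator that switches their genes on. In bulk tissue, fewer cells of a type and less RNA per cell cannot be told apart.

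Upstream sequences are shown for 3 of the members with a match to the motifs named here, so they do not stand for all members. A CCAAT box is part of the conserved promoter of MHC class II genes and EBF1 is a B cell transcription factor. Each line gives the 250 bases before the start that RefSeq annotates on GRCm38.p6, and the capitals mark matches to CCAAT or to an EBF1 palindrome (TCCC and GGGA with 2 bases of any kind between them), searched on both strands.
H2-Aa (chr17:34287824-34288073, minus strand): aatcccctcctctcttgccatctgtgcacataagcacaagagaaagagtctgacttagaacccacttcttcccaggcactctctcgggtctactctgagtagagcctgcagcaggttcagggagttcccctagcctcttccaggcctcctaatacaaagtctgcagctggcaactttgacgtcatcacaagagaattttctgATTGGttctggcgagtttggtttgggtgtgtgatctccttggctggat
H2-Eb1 (chr17:34305617-34305866, plus strand): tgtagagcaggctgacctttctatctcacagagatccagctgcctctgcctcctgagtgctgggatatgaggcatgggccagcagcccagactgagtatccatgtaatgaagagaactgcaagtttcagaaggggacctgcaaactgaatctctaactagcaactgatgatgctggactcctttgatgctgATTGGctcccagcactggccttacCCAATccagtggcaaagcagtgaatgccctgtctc
Cd22 (chr7:30879029-30879278, minus strand): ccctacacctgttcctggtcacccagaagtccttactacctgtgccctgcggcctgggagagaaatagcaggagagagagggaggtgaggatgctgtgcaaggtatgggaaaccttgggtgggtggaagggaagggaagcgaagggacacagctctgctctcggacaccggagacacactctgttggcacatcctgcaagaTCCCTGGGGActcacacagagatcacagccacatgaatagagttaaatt
H2-Aa has a reverse-strand CCAAT beginning 48 bases before the start, at position -48. H2-Eb1 has one on the reverse strand at -59 and one on the forward strand at -35. Cd22 has the EBF1 palindrome at -49. The matches do not overlap. Promoter windows of 300 bases, from 250 before to 50 after the start, were at hand for 25 of 39 members, in 31 windows. Of these 25 members, 7 hold CCAAT and 1 holds the palindrome in at least 1 window. Among 32851 windows of all genes, 37.4% hold CCAAT and 0.904% hold the palindrome, a share of windows and not of genes. The matches are a description of letters, and binding was not measured.

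The libraries held 7714058 to 14629022 counts in genes. Levels are CPM, counts scaled to a library of 1000000 on library sizes scaled by the trimmed mean of M values (TMM), and 3 counts, the limit that a count of 0 allows, correspond to 0.21 to 0.389 CPM. One wild-type library, AUG_WT replicate 1, differed from the rest in its cell markers. Its summed level of 6 hepatocyte markers was 40465 CPM, against 89272 to 147607 in the others. Its 6 proliferation markers summed to 376 CPM, against 7.02 to 24.8. Of its reads, 35.0% overlapped no annotated exon on the counted strand, against 21.8% to 29.4% elsewhere. Where those reads lay was not examined. Hepatocyte markers were still its most abundant marker class, with albumin (Alb) at 32414 CPM and none of the 6 at 0, but their sum was below that of every other library. Beyond its liver label, the source of this library was not checked. The comparisons below are therefore given with and without it.

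AUG_WT replicate 1 was the highest of 16 libraries for 37 of 39 members, and for 29 of the 30 that passed the filter on low counts. Over all 14421 genes tested it was the highest for 28.9%. The level in this library divided by the median of the other 15 had a median of 18.2 over the 30 tested members and of 1.01 over all tested genes. The ratio exceeded 10 in 25 of 30 tested members (83.3%) and in 2.33% of all tested genes. The 2 members highest elsewhere were Il7r, the interleukin-7 receptor of T cells, and Klrb1c (NK1.1), an NK cell receptor, both highest in AUG replicate 2. The 9 members below the filter were Mzb1, Cd3d, Cd8b1, Gzma, Gzmb, Prf1, Klrb1c, Ncr1 and Eomes, whose levels are described and not tested.

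**Figure D1:**
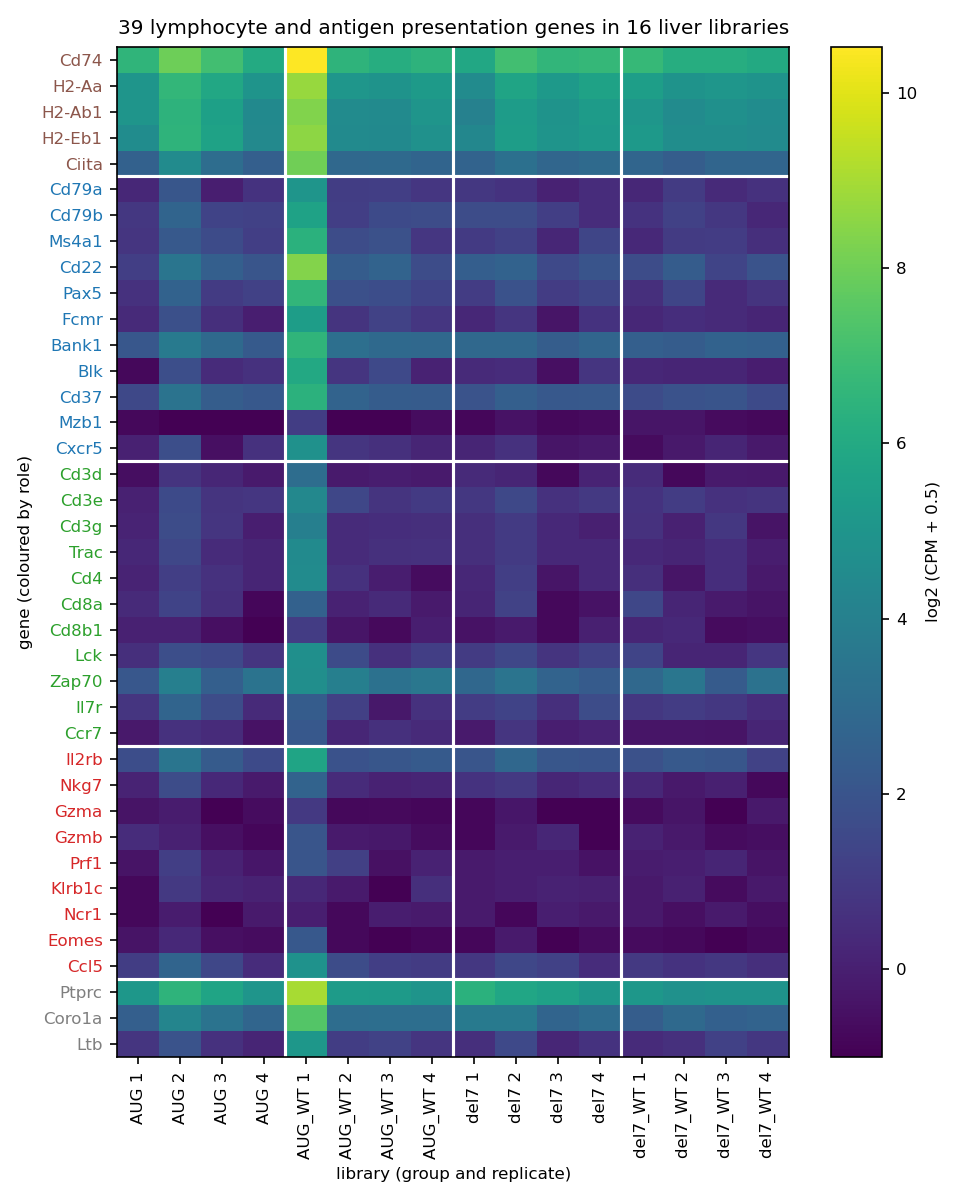
Heat map of log2 (CPM + 0.5) for the 39 members (rows, coloured by role: brown antigen presentation, blue B cell, green T cell, red NK and cytotoxic, grey shared leukocyte) in 16 libraries (columns, 4 per group). AUG_WT replicate 1 is the brightest column for 37 of 39 genes, and AUG replicate 2 is the next brightest for most.

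Among the antigen presentation genes, Cd74, the invariant chain that guides MHC class II molecules to the endosome, was the most abundant. Cd74 stood at 93.9, 252, 130 and 65.3 CPM in AUG replicates 1 to 4, at 1469, 89.2, 71.3 and 86.1 CPM in AUG_WT, at 59.5, 132, 95.4 and 103 CPM in del7 and at 104, 71.7, 71.3 and 63.8 CPM in del7_WT. A single AUG_WT library was thus far above all others, AUG replicate 2 came next, and without those libraries the groups overlapped. The alpha chain H2-Aa reached 426 CPM in AUG_WT replicate 1 and 23.1 to 97.9 CPM in the other 15, the beta chains H2-Ab1 325 CPM against 16.1 to 87.7, and H2-Eb1 382 CPM against 19.6 to 90.2. Ciita reached 258 CPM against 4.83 to 22.8, which is 40.6 times the median of the others and the largest ratio in this role, where the 4 other genes had ratios of 11 to 16.5. Per kilobase of exon, Cd74 was the highest of the 39 members both in AUG_WT replicate 1 (875 CPM per kb) and in the median of the other libraries (53.1 CPM per kb).

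The B cell genes had the largest ratios as a role, with a median of 43.6 over 11 genes and a range of 15.1 to 92.1. Cd22, an inhibitory co-receptor of the B cell receptor, stood at 331 CPM in AUG_WT replicate 1 and at 1.69 to 10.8 CPM in the other 15, so that this library held 87.4% of all Cd22 counts of the series. In AUG, Cd22 was at 1.69, 10.8, 5.04 and 3.59 CPM, in AUG_WT replicates 2 to 4 at 4.55, 5.8 and 2.71, in del7 at 4.98, 5.57, 2.4 and 3.48, and in del7_WT at 2.66, 4.55, 2.08 and 3.4. These 15 values overlapped between all groups.
Blk, a Src-family kinase of B cells, reached 61.5 CPM in AUG_WT replicate 1, a ratio of 77.8. Ms4a1 (CD20) reached 82.8 CPM and Pax5, the factor that holds B cell identity, 96.7 CPM, with ratios of 53.2 and 52.7. Fcmr, the receptor for IgM, reached 42.3 CPM (ratio 45.5), and Cxcr5, the receptor that brings B cells into follicles, 27.6 CPM (ratio 43.6).
The receptor signalling chains Cd79a and Cd79b had lower ratios, 28.4 and 26.5, at 31.7 and 48.7 CPM. Cd37, a tetraspanin, reached 83 CPM (ratio 20.8) and Bank1, a scaffold of B cell receptor signalling, 93.7 CPM (ratio 15.1). Mzb1, a chaperone of antibody secretion, was low in every library: 1.61 CPM in AUG_WT replicate 1 and 0 to 0.28 CPM elsewhere. Summed, the 11 genes stood at 900 CPM in AUG_WT replicate 1 and at 13.7 to 62.3 CPM in the others.

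T cell genes had a median ratio of 15.8 in AUG_WT replicate 1 and a wide range, 2.73 to 32.0. Cd4, the co-receptor of helper T cells, had the highest ratio at 22.7 CPM, against 0.16 to 1.7 CPM in the others. Cd8a and Cd8b1, the chains of the cytotoxic co-receptor, stood at 5.47 and 1.54 CPM there, with ratios of 8.66 and 5.43. The receptor genes lay between these: Trac, the alpha constant region, reached 22.4 CPM, Cd3e 20.1, Cd3g 15.4 and Cd3d 8.28 CPM, with ratios of 15.8 for Cd3e, 17.0 for Cd3g and 20.7 for Cd3d. Cd3e was at 0.533, 2.52, 1.14 and 1.28 CPM in AUG, at 20.1, 2.28, 1.14 and 1.44 in AUG_WT, at 1.34, 2.34, 1.06 and 1.37 in del7 and at 1.12, 1.58, 1.04 and 1.16 in del7_WT. Apart from AUG_WT replicate 1, the Cd3e values overlapped in all groups.
Lck, the kinase bound to CD4 and CD8, reached 26.2 CPM (ratio 17.5). Zap70, the kinase that docks on the receptor chains, had the smallest ratio of the role at 25.1 CPM, since its median in the other 15 was already 9.21 CPM. Ccr7, the homing receptor for lymph nodes, was at 4.07 CPM and Il7r at 4.63 CPM in AUG_WT replicate 1. Il7r reached 6 CPM in AUG replicate 2, the one T cell gene for which that library was the highest of all 16.

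NK and cytotoxic genes split within the role. Il2rb, the interleukin-2 receptor beta chain of NK and T cells, reached 52.6 CPM in AUG_WT replicate 1 against 1.88 to 10.8 CPM elsewhere, and Ccl5, a chemokine of activated T and NK cells, reached 28.8 CPM against 0.871 to 6. Eomes, a transcription factor of NK cells and CD8 T cells, reached 4.07 CPM against 0 to 0.736. By contrast, Ncr1 (NKp46), a receptor that marks NK cells, was at 0.491 CPM in this library and at 0 to 0.48 CPM elsewhere, a ratio of 1.32. Klrb1c was at 0.702 CPM and at 0 to 1.37 CPM elsewhere, a ratio of 1.45.
The granule genes lay between these extremes and at low levels: Nkg7, a granule membrane protein, at 5.82 CPM (ratio 8.66), the granzymes Gzma and Gzmb at 1.4 and 3.65 CPM, and Prf1 (perforin) at 3.65 CPM (ratio 7.85). Gzma rests on 20 counts in AUG_WT replicate 1 and 26 in the other 15 together, and Eomes on 58 and 27. At these depths, a small difference in Ncr1, with 7 counts in AUG_WT replicate 1, was not detectable. The Ncr1 ratio of 1.32 was the smallest of the role, whose median was 10.7, and this gap was not tested.

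The 3 shared leukocyte genes were all highest in AUG_WT replicate 1. Ptprc (CD45), the phosphatase on all nucleated blood cells, reached 512 CPM (ratio 15), Coro1a, an actin regulator of leukocytes, 171 CPM (ratio 21.9) and Ltb (lymphotoxin beta) 33.5 CPM (ratio 28.0). The panels of summed levels show the same library on top in each role, at 2858 CPM for antigen presentation, 900 CPM for B cell, 156 CPM for T cell, 101 CPM for NK and cytotoxic and 717 CPM for shared genes. The medians of the other 15 were 186, 22.6, 16.5, 7.43 and 42.3 CPM.

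**Figure D2:**
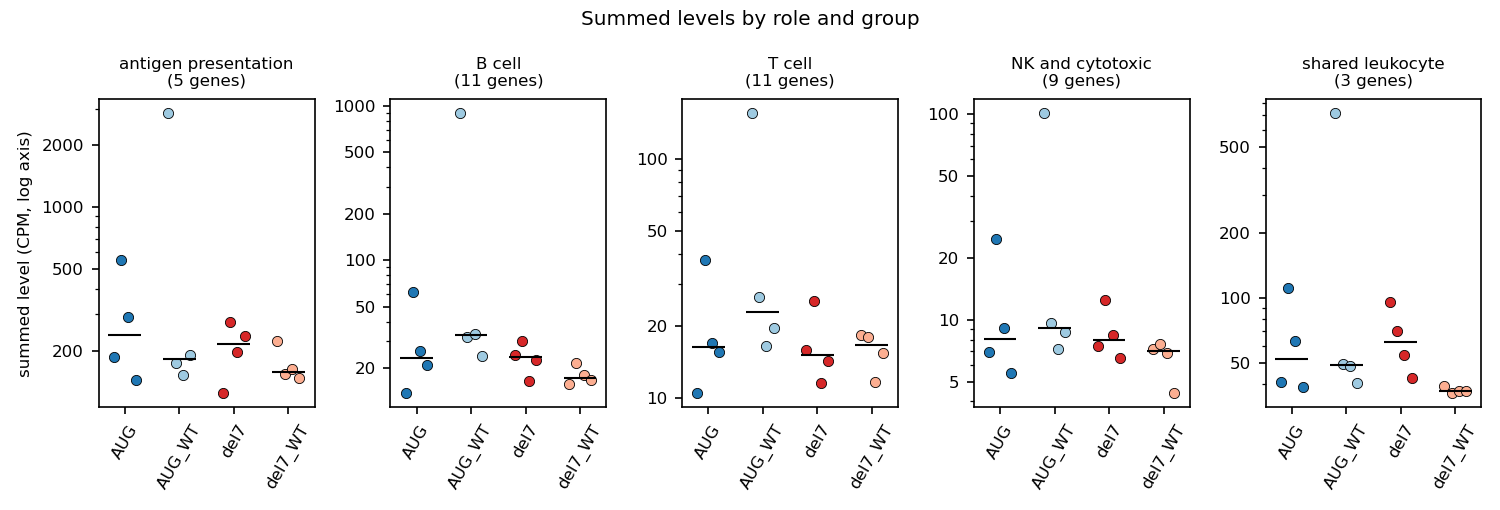
Summed CPM (log axis, a scale for each panel) of the members of each role, 1 point per library, with the 4 groups on the horizontal axis and a line at each group's median. AUG_WT replicate 1 lies above all other libraries in every panel, and AUG replicate 2 is the highest of the other 15.

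Other genes of the same pathways, held in lists that are not members, were read in AUG_WT replicate 1 as well. Of 20 partners of the B cell receptor, 18 were highest in this library and 16 had a ratio above 10, among them the coactivator Pou2af1 at 132 CPM (ratio 127), the factor Spib at 85.7 CPM (ratio 64.2), the adaptor Blnk at 56.5 CPM (ratio 18.1) and the inhibitory lectin Siglecg at 57.9 CPM (ratio 60.5). The 2 that were not highest there were Cr2 (CD21), a complement receptor, at 0.491 CPM against 0.114 to 2.1, and Vpreb3 at 0.14 CPM against 0 to 0.948.
All 20 T cell receptor partners were highest in this library, with ratios above 10 in 11. The regulatory T cell factor Foxp3 was at 12.3 CPM against at most 0.553, and the checkpoint receptor Ctla4 at 15.7 CPM against at most 0.736. The adhesion receptor Cd2 was at 33.5 CPM (ratio 32.2), the receptor Cd6 at 6.59 CPM (ratio 14.5) and the costimulator Icos at 15.5 CPM (ratio 13.3).
Of 15 NK and cytotoxic partners, 6 were highest there, and their sum was 44.8 CPM against 6.76 to 22.8 elsewhere. Besides Tbx21, they were the integrin Itga2 at 6.66 CPM (ratio 18.7), the granzyme Gzmk at 3.65, interferon gamma (Ifng) at 1.75, Fas ligand (Fasl) at 1.26 and the receptor Klrg1 at 0.421 CPM, which is 6 counts. The lectin receptors Klrk1 (3.79 CPM, ratio 1.79), Klrd1 (0.772 CPM, ratio 1.74) and Klre1 (0.281 CPM, ratio 1.16) were within the range of the other libraries, as were Txk, Cd244a and Il18rap with ratios of 1.62, 3.27 and 2.62, while Tbx21 (T-bet), which T cells and B cells also use, was at 14.9 CPM (ratio 28.0).

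Of 15 partners of MHC class II processing, 13 were highest in AUG_WT replicate 1. The activation marker Cd83 was at 90.6 CPM (ratio 34.9), the peptide editors H2-DMb2 and H2-Ob at 47.3 and 68.9 CPM (ratios 39.1 and 34.9) and the costimulator Cd80 at 21.6 CPM (ratio 22.8). The other 2 were subunits of the RFX complex, which binds MHC class II promoters: Rfxap at 5.89 CPM (ratio 0.852) and Rfxank at 12 CPM (ratio 0.9). The third subunit, Rfx5, was at 38.4 CPM (ratio 1.54). Ciita thus had a ratio of 40.6 in a library where the RFX genes had ratios of 0.852 to 1.54.

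Markers of stages and of other cells were read in the same way. The recombinase genes Rag1 and Rag2, which mark precursor B and T cells, had 0 counts in all 16 libraries, which allows up to 0.21 CPM in AUG_WT replicate 1. Igll1, of the surrogate light chain, was at 0 there, Vpreb1 was at 0.0702 CPM, and Dntt was at 3.3 CPM against 1.87 to 9.12. Mef2b, a germinal centre gene, was at 5.75 CPM against at most 0.239, whereas Bcl6, which many cells use, was at 26.1 CPM against 4.65 to 26.7, and Fas and S1pr2 had ratios of 1.74 and 1.98.
The immunoglobulin genes Ighm, Igkc and Iglc2 were at 415, 532 and 37.5 CPM, with ratios of 10.1, 17.3 and 58.7. Of 8 plasma cell markers, with Ighm, Igkc and Iglc2 among them, 6 were highest there, and the sum of the 8 was 1274 CPM against 364 to 768 elsewhere. Most of the 1274 CPM was Ighm and Igkc. Jchain, the chain that joins immunoglobulin subunits, was at 41 CPM, Prdm1 (Blimp-1) at 11.6 CPM and Tnfrsf17 at 0.14 CPM, which is 2 counts. The exceptions were Sdc1 and Xbp1, which hepatocytes also express, at 115 and 122 CPM, below the lowest of the other 15 (179 and 127 CPM). Of 11 genes of lymphoid tissue organisation, 7 were highest there, with Cxcl13 at 77.9, Cxcr4 at 46.1 and Tnfsf13b at 8.42 CPM, and the stromal genes Ltbr and Cxcl12 were below the range of the other libraries, at 41 and 202 CPM.
The 6 proliferation markers all had ratios above 10, led by Top2a (ratio 37.1) and Mki67 (ratio 35.2, 228 CPM). The 10 Kupffer markers summed to 1075 CPM against 267 to 883, 7 dendritic markers to 99.8 CPM against 19.3 to 37.4 with Cd209a at 0, 8 neutrophil markers to 41.7 CPM against 2.73 to 15.5 with Ly6g at 0, and 5 endothelial markers to 271 CPM against 360 to 457. The sums of 4 cholangiocyte and 7 erythroid markers, at 13 and 133 CPM, lay within the range of the others. The TMM factor of AUG_WT replicate 1 was 1.35, against 0.875 to 1.04 in the others, which lowers all of its CPM values. Without TMM factors, the ratio of its summed endothelial markers was 0.909 in place of 0.654. How far other levels below the range, as of Xbp1, Ltbr and Cxcl12, rest on this scaling was not tested. What these markers contribute to the members' levels was not tested.

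**Figure D3:**
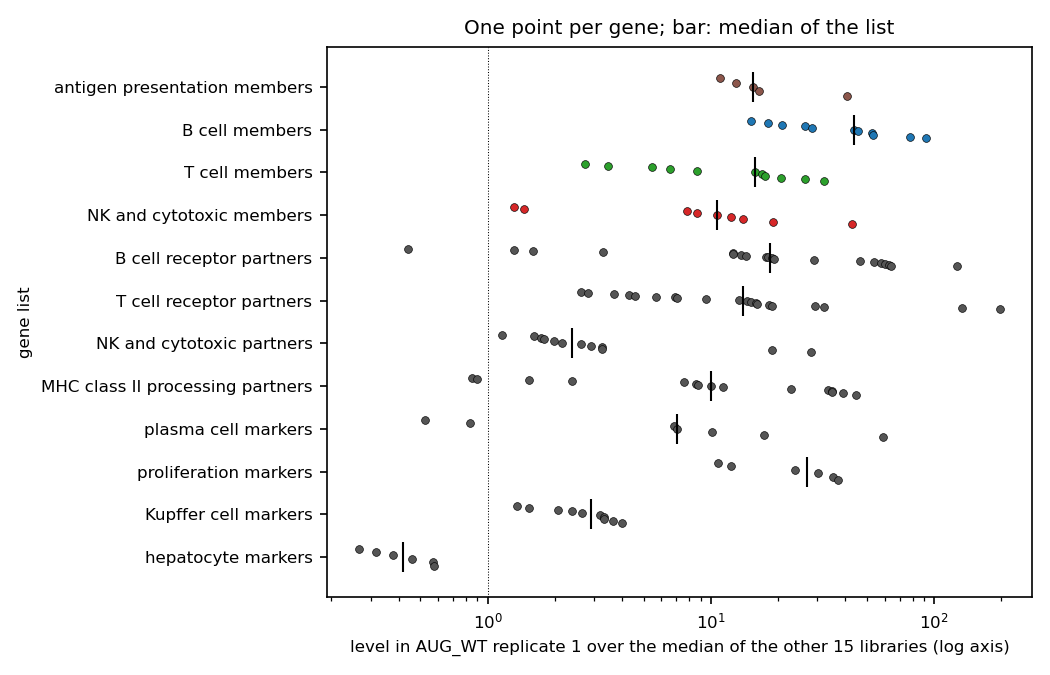
Level in AUG_WT replicate 1 divided by the median of the other 15 libraries (log axis), 1 point per gene, for 4 roles of the members and 8 other lists, with a bar at each list's median. Klrg1, Gzmk, Ifng and Tnfrsf17, whose median elsewhere is 0, are not drawn. B cell genes lie farthest to the right among the members, Ncr1 and Klrb1c lie near 1, and all hepatocyte markers lie below 1.

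Among the other 15 libraries, AUG replicate 2 was the highest for 30 of 39 members and for 26 of the 30 tested. It was the highest of the 15 for 8.01% of all tested genes. Its summed levels were 2.66 times the mean of the other AUG replicates for antigen presentation, 3.11 times for B cell, 2.63 times for T cell, 3.44 times for NK and cytotoxic and 2.33 times for shared genes. Il2rb, for example, was at 2.85, 10.8, 4.47 and 2.55 CPM in AUG replicates 1 to 4. Klrb1c followed this pattern, at 1.37 CPM in AUG replicate 2 and at 0.0889 to 0.666 CPM in the other AUG libraries. The Kupffer markers of that library summed to 883 CPM, 1.85 times the mean of the other AUG replicates, and its hepatocyte markers to 0.931 times theirs. Its neutrophil markers summed to 15.4 CPM, 2.29 times the same mean, its dendritic markers to 1.58 times it and its erythroid markers to 0.463 times it. The part of these markers in the members' levels was not tested.

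The first comparison asks whether the genes differ between AUG and its wild-type samples. No member passed an adjusted p of 0.05 in edgeR's quasi-likelihood test with Benjamini-Hochberg adjustment over all genes, where 0.0277% of all tested genes passed. DESeq2 and limma voom also called 0 members, in this and in the other comparisons. With all 16 libraries, 29 of 30 members had a log2 fold change below 0, with a median of -2.95 for B cell, -1.88 for T cell, -1.65 for NK and cytotoxic, -1.31 for antigen presentation and -2.31 for shared genes, against -0.04 over all genes. Of all tested genes 56.2% were below 0. Of the 30, 20 had an unadjusted p under 0.05 in edgeR, all of them lower in AUG, as had 7.37% of all genes tested in this direction. This count did not hold in limma voom, where 1 member had one. In DESeq2 2 had one, where only 6 members had an adjusted p. The median over the 30 was -2.15 in edgeR and -1.17 in limma voom. The lowest was Cd22, at -4.04 (SE 1.24, adjusted p = 0.561). Yet 0 of 30 members had groups that did not overlap in this direction, against 1.2% of all tested genes, so that in each member at least 1 AUG library was as high as an AUG_WT library.

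Without AUG_WT replicate 1, 21 of the 30 members changed the sign of their estimate, 22 were above 0 and 8 below, and the medians became 0.02 for B cell, 0.17 for T cell, 0.46 for NK and cytotoxic, 0.74 for antigen presentation and 0.26 for shared genes. Of all genes tested there, 47.5% were below 0. Again 0 members passed the adjusted threshold, against 0.0274% of all genes. The antigen presentation genes were all above 0, at 0.65 to 0.96. H2-Eb1 was at 23.6, 90.2, 49.2 and 20.9 CPM in AUG and at 22.4, 21.5 and 27.9 CPM in AUG_WT replicates 2 to 4, so the groups overlapped. Its log2 fold change was 0.96 (SE 0.41, adjusted p = 0.821 in edgeR's quasi-likelihood test), and that of H2-Ab1 was 0.87 (SE 0.40, adjusted p = 0.834 in the same edgeR test). These 2 were the only members with an unadjusted p under 0.05 in edgeR, and 2.58% of all genes had one in this direction. The count was 0 in limma voom and 5 in DESeq2, and nothing is read from it. The Kupffer markers summed to 378 to 883 CPM in AUG and 407 to 480 CPM in AUG_WT replicates 2 to 4, and the dendritic markers to 19.3 to 34.4 and 21.5 to 23.9 CPM. The 7 erythroid markers summed to 138 to 530 CPM in AUG and 610 to 2966 CPM in AUG_WT replicates 2 to 4, which did not overlap. The part of these markers was not tested.
Cd22 moved from -4.04 to 0.30 (SE 0.48), Pax5 from -3.41 to -0.06 (SE 0.49) and Cd3e from -2.21 to -0.24 (SE 0.42). Zap70 and Ccr7 kept estimates below 0, at -0.47 (SE 0.41) and -0.41 (SE 0.51), and Il7r stayed above 0 at 1.30 (SE 0.62). Groups without overlap, higher in AUG, were found in 2.33% of all tested genes and in 0 of the 30 tested members. Eomes, below the filter and singled out after its values were seen, was at 0.16 to 0.736 CPM in AUG and at 0 to 0.0948 CPM in the 3 other AUG_WT libraries.
When AUG replicate 2 was left out as well, 21 of 29 members were below 0 and 8 above, and H2-Eb1 stood at 0.39 (SE 0.31) and Bank1 at -0.60 (SE 0.22). The tested B cell genes were all below 0, from -0.99 (Blk) to -0.32 (Cd22). The antigen presentation genes ran from -0.08 (Ciita) to 0.39. In edgeR 4 members had an unadjusted p under 0.05, all lower in AUG, as had 454 of 14528 genes in this direction. No member passed the adjusted threshold, and nothing is read from the count. Of all genes tested there, 49.3% were below 0. The sign of most estimates in this comparison thus turned on which of 2 libraries was included.

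**Figure D4:**
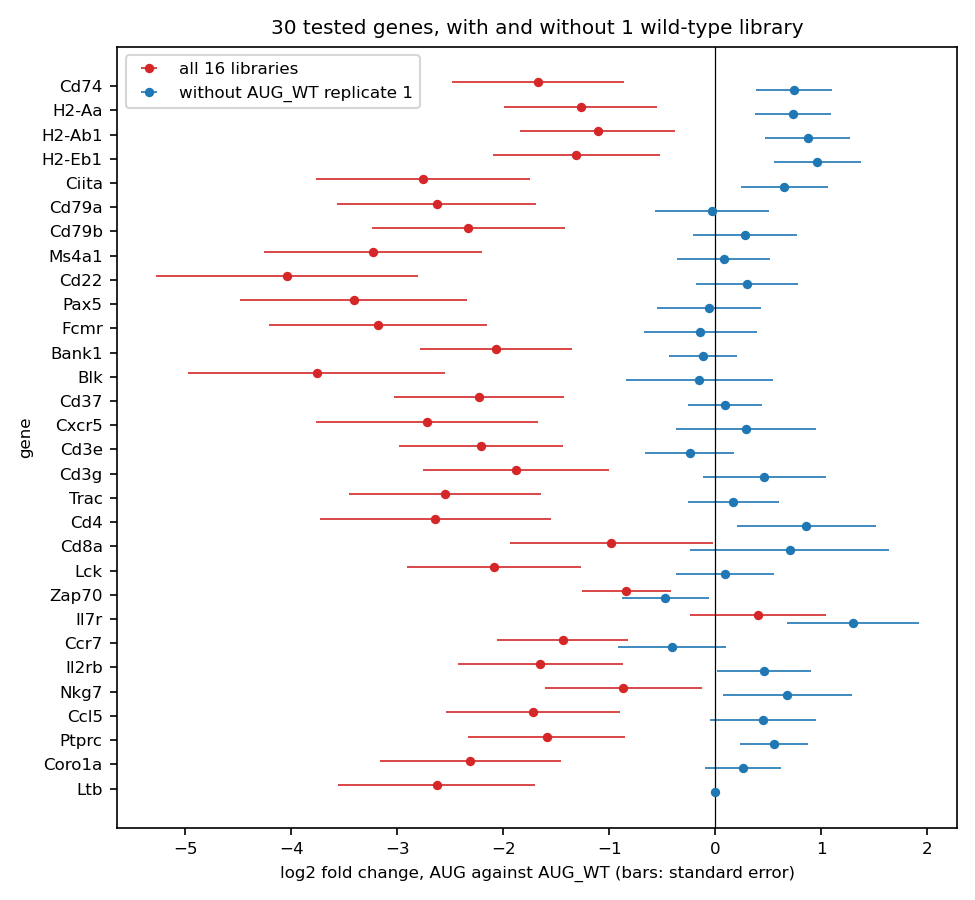
Log2 fold change of AUG against AUG_WT for the 30 tested members (vertical axis), with bars of 1 standard error, from the fit of all 16 libraries (red) and without AUG_WT replicate 1 (blue). All genes except Il7r are left of 0 in red, 22 are right of 0 in blue, and Ltb, at 0 in blue, has no bar.

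In the second comparison, del7 against del7_WT, 0 members passed the adjusted threshold in edgeR's test, and the share of all genes that passed was 0 with 16 and 0 with 15 libraries. The estimates were above 0 for 27 of 30 members, while 49.9% of all tested genes were below 0. Ptprc was at 81.5, 55.5, 47.6 and 33.3 CPM in del7 and at 33.3, 28, 30 and 30 CPM in del7_WT, and was the single member whose groups did not overlap, against 2.41% of all genes in this direction. The lowest del7 library and the highest del7_WT library were equal when rounded, and del7 replicate 1 was the highest. Its log2 fold change was 0.85 (SE 0.74, adjusted p = 1 in edgeR's quasi-likelihood test) and, without AUG_WT replicate 1, which enters this contrast only through the scaling and the shared spread, 0.84 (SE 0.30, adjusted p = 0.841).
Coro1a was at 12.6, 12.4, 6.15 and 7.84 CPM in del7 and at 4.76, 7.06, 5.32 and 5.81 CPM in del7_WT, which overlapped, with a log2 fold change of 0.77 (SE 0.34, adjusted p = 0.889 in the edgeR fit of 15 libraries). These 2 were the only members with an unadjusted p under 0.05 in that fit, where 3.22% of all genes had one in this direction, and limma voom gave 3 members and DESeq2 2. With AUG replicate 2 left out as well, edgeR gave 3 of 29 members and 537 of 14528 genes in this direction. Nothing is read from these counts. In the fit of 16 libraries 0 members had one in either direction, against 1.92% of all genes. Both are expressed by myeloid cells as well as lymphocytes. The 10 Kupffer markers summed to 432 to 701 CPM in del7 and to 267 to 426 CPM in del7_WT, and the 8 neutrophil markers to 6.59 to 15.5 and 2.73 to 5.45 CPM, with Ly6g at 0 in 15 of 16 libraries. Their part in the Ptprc and Coro1a values was not tested.
In the fit without AUG_WT replicate 1, 27 of 30 estimates were above 0, and the 3 below 0 were Cd79a, Cd8a and Zap70. Of all genes tested there, 52.2% were below 0. Nkg7, a granule protein of cytotoxic cells, was at 1.23 (SE 0.60), the chemokine receptors Ccr7 and Cxcr5 at 0.88 (SE 0.52) and 0.76 (SE 0.75), and the B cell receptor chain Cd79b at 0.72 (SE 0.49). Its partner chain Cd79a was at -0.03 (SE 0.54), Cd3e at 0.31 (SE 0.40), Cd8a at -0.30 (SE 0.81) and the kinase Zap70 at -0.24 (SE 0.39). The role medians were 0.36 for B cell, 0.46 for T cell, 0.44 for NK and cytotoxic, 0.24 for antigen presentation and 0.77 for shared genes.

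The difference between the AUG and del7 effects was tested as an interaction. No member passed, against 0.00693% of all tested genes with 16 libraries and 0.0137% without AUG_WT replicate 1. With 16 libraries all 30 estimates were below 0, as were 54.9% of all tested genes. In edgeR 14 members had an unadjusted p under 0.05, against 4.29% of all genes in this direction. The smallest was that of Pax5 at -4.14 (SE 1.55, adjusted p = 0.864 in edgeR's test). In limma voom 1 member had one. In DESeq2 2 had one, where only 7 members had an adjusted p. Without AUG_WT replicate 1, 0 members had one in either direction in edgeR, against 3.02% of all genes, nor in limma voom or DESeq2, and Pax5 was at -0.78 (SE 0.69). With AUG replicate 2 left out as well, 5 of 29 members had an unadjusted p under 0.05 in edgeR, all below 0. So had 358 of 14528 genes in this direction, and no member passed the adjusted threshold. Between the fits of 16 and 15 libraries, the estimates by role also moved. The antigen presentation genes went from a median of -1.55 to one of 0.50.

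The last comparison sets the wild-type groups side by side, which bear the same genotype label. No member passed, against 0.0347% of all genes with 16 libraries and 0.0686% without AUG_WT replicate 1. All 30 estimates were above 0 with 16 libraries, while 44.6% of all tested genes were below 0. In edgeR 28 members had an unadjusted p under 0.05, against 9.23% of all genes in this direction. The smallest p was that of Ms4a1 at 4.25 (SE 1.11, adjusted p = 0.287 in edgeR's test). In limma voom 2 members had an unadjusted p under 0.05. In DESeq2 5 had one, where only 7 members had an adjusted p. Without AUG_WT replicate 1, 24 were above 0, while 50.9% of all genes were below 0. Without that library 0 members had an unadjusted p under 0.05 in either direction in edgeR, against 7.47% of all genes, with 2 in limma voom and 1 in DESeq2. With AUG replicate 2 left out as well, 7 of 29 members had an unadjusted p under 0.05 in edgeR, all higher in AUG_WT. So had 581 of 14528 genes tested, in the same direction. AUG replicate 2 enters this contrast only through the filter, the scaling and the shared spread. No member passed the adjusted threshold there, and nothing is read from the counts.
In 6 of 30 members every AUG_WT library was above every del7_WT library, with 16 libraries and also without AUG_WT replicate 1, against 2% and 4.52% of all tested genes. The 6 were Fcmr, Bank1, Cd37, Ccr7, Ccl5 and Coro1a. Cd37 was at 5.88, 4.66 and 4.39 CPM in AUG_WT replicates 2 to 4 and at 2.59, 3.25, 3.5 and 2.5 CPM in del7_WT, a log2 fold change of 0.74 (SE 0.36, adjusted p = 0.684 in the edgeR fit of 15 libraries). Bank1 was at 8.82, 7.27 and 7.02 CPM against 5.11, 4.55, 5.71 and 5.37 CPM, a log2 fold change of 0.55 (SE 0.32).
Ccl5 was at 2.65, 1.7 and 1.52 CPM against 1.4, 1.11, 1.3 and 0.984 CPM, and Coro1a at 8.25, 8.52 and 8.46 CPM against 4.76, 7.06, 5.32 and 5.81 CPM. The 10 tested B cell genes were all above 0 without AUG_WT replicate 1, with a median of 0.89 and a range of 0.41 to 1.39, and their sum over 11 genes was 24 to 33.2 CPM in AUG_WT replicates 2 to 4 and 15.8 to 21.6 CPM in del7_WT. The antigen presentation genes had a median of -0.03. The Kupffer markers summed to 407 to 480 CPM and 267 to 426 CPM in these groups. The erythroid markers summed to 610 to 2966 CPM in AUG_WT replicates 2 to 4 and 128 to 403 CPM in del7_WT, with 7 of 7 estimates above 0 and a median log2 fold change of 2.02 in that fit. The 4 cholangiocyte markers went the other way, at 3.13 to 5.57 and 8.34 to 11.6 CPM. The part of these markers was not tested.

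**Figure D5:**
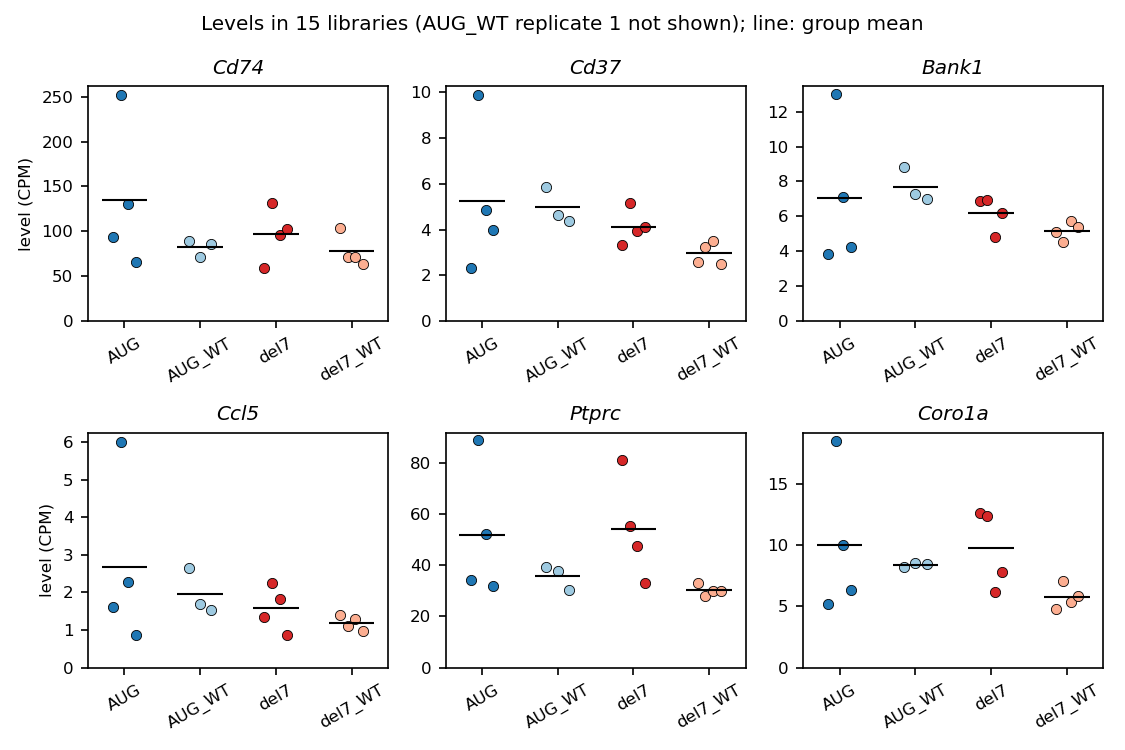
Levels (CPM, linear axis from 0) of 6 members in 15 libraries by group, 1 point per library with a line at the group mean, AUG_WT replicate 1 left out. AUG replicate 2 is the highest point in each panel, the 3 AUG_WT points of Cd37, Bank1, Ccl5 and Coro1a lie above the del7_WT points, and the del7 points of Ptprc lie above or level with those of del7_WT.

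Leaving out AUG_WT replicate 1 also narrowed the spread within its group, which follows from its being the highest library for most members. Cd74 averaged 429 ± 693 CPM (SD, n = 4) in AUG_WT with it and 82.2 ± 9.6 CPM (SD, n = 3) without it, beside 135 ± 82.3 CPM in AUG (SD, n = 4), 97.5 ± 29.8 CPM in del7 (SD, n = 4) and 77.7 ± 18 CPM in del7_WT (SD, n = 4). Pax5 averaged 26.1 ± 47 CPM (SD, n = 4) with it and 2.62 ± 0.552 CPM (SD, n = 3) without it, against 2.5 ± 2.07 CPM in AUG (SD, n = 4). Il2rb averaged 16 ± 24.4 CPM (SD, n = 4) with it and 3.76 ± 0.543 CPM (SD, n = 3) without it, against 5.18 ± 3.87 CPM in AUG (SD, n = 4). In each of these 3 genes the difference between AUG and the remaining AUG_WT libraries was smaller than the SD within AUG.

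No partner gene or marker gene of the other lists passed the adjusted threshold in any of the 4 comparisons, with or without AUG_WT replicate 1. Of the partners tested with all 16 libraries, 16 of 16 for the B cell receptor, 12 of 12 for the T cell receptor and 12 of 13 for MHC class II processing had estimates below 0 in AUG against AUG_WT, and without AUG_WT replicate 1 the counts below 0 were 7 of 17, 3 of 12 and 1 of 13. Pou2af1 went from -5.02 (SE 1.30) to -0.94, Cd83 from -2.93 (SE 0.97) to 0.30 and Cd2 from -2.48 (SE 0.98) to 0.64. The 5 tested NK and cytotoxic partners had a median of 0.01 and a range of -0.39 to 0.38 in the fit of all libraries, and without AUG_WT replicate 1 all 5 estimates were above 0, with a median of 0.36.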

How the data were processed

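RNA of 16 mouse liver samples was sequenced from ribosome-depleted, strand-specific libraries, per the labels' protocols. The submitters' processing notes name cutadapt 2.10, STAR 2.7.9a and the genome GRCm39, and no annotation release was found in the sources used. Gene values are raw counts that the authors deposited, and the series table equalled the reverse-strand counts in all 16 samples. Symbols and exon lengths came from GENCODE M21 (52081 of 55357 identifiers matched), which is built on GRCm38, so no gene coordinates are given; upstream sequences are RefSeq's on GRCm38.p6.

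The count test was edgeR (version 4.0.16, R version 4.3.3) after filterByExpr with a minimum count of 10 (14421 genes, 14582 without AUG_WT replicate 1), TMM scaling, with glmQLFit and glmQLFTest run on the means of all 4 groups, with Benjamini-Hochberg adjustment over all tested genes at 0.05. The standard error is the log2 fold change divided by the square root of F. The fit was tested on simulated counts in which no library stood apart, so that test does not cover a library like AUG_WT replicate 1. DESeq2 1.42.0 and limma voom (limma 3.58.1) were alternatives. The members and lists were chosen with earlier results of these data known. All 39 members are named; of the other lists, any gene past the threshold would be named and, since none was, up to 4 with the smallest p in AUG against AUG_WT, and further genes named were chosen after their values were seen. Some genes of these lists are not reported here. STAR counts reads that align to 1 place, so the immunoglobulin genes and paired MHC and granzyme genes, which have near-identical relatives, are uncertain. Replicate numbers were not taken to pair the samples, since the wild-type samples' source names number them on another count.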

Additional observations from a re-analysis of the deposited data

Results flagged for a closer look

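In each group of 4 libraries, the gap between the most extreme library and its nearest neighbour was compared with the group's range for the 39 members on the log2 scale. Of 156 such checks 30 exceeded the 95% limit. Chance gives about 1 in 20 for independent checks, which these are not. Of the 30, 23 were in AUG_WT replicate 1, which is 1 library seen through many genes and was already known to stand apart. The check was not run over all genes, so these counts are not read as a result about the members.

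In that library the antigen presentation genes stood out with Cd74 at 1469, H2-Aa at 426, H2-Ab1 at 325, H2-Eb1 at 382 and Ciita at 258 CPM. The B cell genes that did so were Cd79a at 31.7, Cd79b at 48.7, Cd22 at 331, Pax5 at 96.7, Fcmr at 42.3, Bank1 at 93.7, Cd37 at 83 and Cxcr5 at 27.6 CPM. The T cell genes were Cd3d at 8.28, Cd3g at 15.4 and Trac at 22.4 CPM. The NK and cytotoxic genes were Il2rb at 52.6, Nkg7 at 5.82, Gzma at 1.4 and Eomes at 4.07 CPM, and the shared genes were Ptprc at 512, Coro1a at 171 and Ltb at 33.5 CPM.

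The other 7 were spread over 7 libraries. H2-Eb1 was high in del7_WT replicate 1 at 35.4 CPM, Il2rb was high in del7 replicate 2 at 6.7 CPM and Ccr7 was high in del7_WT replicate 4 at 0.626 CPM. Ciita was low in del7_WT replicate 2 at 4.83 CPM. The remaining 3 rest on about 1 count each. These were Mzb1 in AUG replicate 1 at 0.0889, Cd3d in del7 replicate 3 at 0.0961 and Ncr1 in AUG_WT replicate 2 at 0.0948 CPM.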

How the results depend on the processing

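No member passed the adjusted threshold under any of 27 alternative settings (2401 values). The smallest adjusted p was 0.0907, for Lck in AUG_WT against del7_WT by DESeq2, which gave no adjusted p for most members in the fit of 16 libraries. Without AUG_WT replicate 1, 21 of 30 estimates in AUG against AUG_WT changed sign. Without TMM factors, the ratio of summed B cell levels in AUG_WT replicate 1 was 52.7 in place of 39.8. For the hepatocyte, endothelial and lymphoid tissue organisation lists it was 0.523, 0.909 and 1.28 in place of 0.383, 0.654 and 0.932. Depth left 9 members untested, among them Mzb1, Gzma, Eomes and Ncr1, with 18, 26, 27 and 46 counts over the other 15 libraries.

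Counts of genes passing moved over all genes. For AUG against AUG_WT (4) DESeq2 gave 9, and 14 on 15 libraries. For del7 (0) DESeq2 gave 1, and 10 on 15 libraries. For the difference (1) DESeq2 gave 6 and limma voom 2, DESeq2 on 15 libraries gave 7 and limma voom on them 3, and leaving out AUG_WT replicate 1 gave 2, with or without AUG replicate 2. For the wild-type groups (5) no filter gave 11, DESeq2 70, unstranded counts 3, the 2 groups alone 13, leaving out both libraries 13, DESeq2 on 15 libraries 84 and limma voom on them 10. Leaving out single replicates gave 1 to 10, the most without AUG_WT replicate 1 and 1 without AUG_WT replicate 2 or del7_WT replicate 2. The cause was not tested.

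With the replicate block, 4 genes passed for AUG, 0 for del7, 2 for the difference and 1 for the wild-type groups, and 0 members in each; an unadjusted p under 0.05 was left to 1, 0, 0 and 20 members, and the member median for AUG was -1.37. Same-numbered libraries did not deviate together in every pair, with correlations of -0.16 to 0.35 for AUG and AUG_WT and -0.07 to 0.06 for the wild-type groups. For del7 and del7_WT the correlations were 0.09 to 0.28, all above 0. Whether same-numbered libraries share more than a number was not tested. Leaving out 2 libraries and the 15-library fits of DESeq2 and limma voom were chosen after seeing the data.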
